A study of Mus musculus with 24 samples.

Results

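Gene expression was compared between 2 mouse embryonic stem cell (ESC) lines before any treatment. The members are the 3 untreated PRC1CPM and the 3 untreated PRC1CKO RNA libraries, 6 of the 24 samples of the series. Both lines were built in E14, a male mouse ESC line, carry a tamoxifen-inducible Cre at Rosa26 (Rosa26::ERT2-Cre), and are represented by 1 clone each. In PRC1CKO (clone B9) both copies of Ring1a are deleted and Ring1b is floxed (Ring1a-/-, Ring1b fl/fl), so RING1A is already missing before treatment and RING1B is still made. PRC1CPM (clone 41) carries the substitutions I50A and D53K in Ring1a and a floxed Ring1b that is wild type until Cre turns round an exon with I53A and D56K. These cells therefore hold a full-length but catalytically dead RING1A and a wild-type RING1B. The study used OHT (4-hydroxytamoxifen) to remove RING1B from one line and to inactivate it in the other. The 6 treated libraries (800 nM for 72 h) share no library with the untreated ones. Their values are given only where named, but they enter the fit, where all 12 RNA libraries set the filter on low counts and the estimate of the spread behind every p-value. Because each line is a single clone, the effect of the RING1A alleles and any other difference between the clones cannot be told apart here. Each replicate is a library labelled as a separate replicate of its line. Nothing in the labels states that replicates came from separate cultures, so the p-values measure the spread between these libraries.

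RING1A and RING1B are the interchangeable catalytic subunits of Polycomb repressive complex 1 (PRC1), which ubiquitylates histone H2A at CpG island promoters. In ESCs RING1B is the more abundant of the pair, and the complex keeps developmental transcription factor genes at low expression. Variant forms of PRC1 that contain PCGF6, MGA and the E-box reader MAX act at germline gene promoters.

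The deposited values are normalised read counts, that is, reads over a whole gene body (introns included) divided by a factor for the library. That factor was set by reads from Drosophila SG4 cells mixed in before RNA extraction. In bulk RNA a lower value can come from fewer cells with a transcript or from less transcript per cell, and these cannot be told apart. Total reads over gene bodies were 19062652, 20241765 and 14668159 in PRC1CPM replicates 1, 2 and 3 and 16755349, 22893245 and 20998133 in PRC1CKO. Values are given below in this order of replicates. The mean normalised read count over all 20633 transcripts was 1180, 925 and 964 in PRC1CPM and 1210, 854 and 861 in PRC1CKO. Replicate 1 was the highest library of each line, so the overall level varied more between replicates than between lines. Pearson correlations of log2 values were 0.976 to 0.983 within a line (6 pairs) and 0.970 to 0.980 between lines (9 pairs, across genes, which are not independent replicates).

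The ESC label was checked against marker genes. Pou5f1, the core pluripotency factor, had 5480, 3300 and 4840 normalised reads in PRC1CPM and 6220, 3550 and 4430 in PRC1CKO, and the groups overlapped. Per kb of gene body, the ESC markers Pou5f1, Sox2, Zfp42, Klf4, Utf1 and Esrrb had medians over the 6 libraries of 977, 2590, 786, 1110, 1230 and 68.5. Markers of endoderm, mesoderm, neuroectoderm and trophoblast checked in the same way were at 0.092 (Elf5) to 24.9 (Sox1), apart from Nes at 99.8, with Gata4 at 2.71, Gata6 at 2.35, T at 5.24, Eomes at 9.01 and Cdx2 at 3.15. Nes thus lay above Esrrb, as did the fibroblast list members Vim (209), Thy1 (141) and Tagln (109). The defining fibroblast markers Lum and Dcn had at most 2 and 12 reads in any untreated library, Postn had 8 to 36 reads in PRC1CPM and 10 to 26 in PRC1CKO, and Thy1 had 574 to 814 and 467 to 678. The fibroblast list as a whole is described with the other cell type lists.

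The engineered locus comes first, since it bears on the labels. Ring1 (the gene symbol of Ring1a, NM_009066) lies on the minus strand at chr17:34020792-34024680 (mm10). The study's guide RNAs are shown because they fix which part of the gene is left in PRC1CKO; each is written 5′ to 3′ with the adjacent PAM, read from the GRCm38.p6 genome, in capitals. Guide 1 was used to place I50A and D53K, and guides 3 and 4 to delete Ring1a.
RING1A guide 1: ttcagcatgtccaggcagatGGG
RING1A guide 3: ctcagcggagccccgcttggAGG
RING1A guide 4: gcgaccgtgcagctgacgttGGG
Guide 1 matched exon 3 (chr17:34023365-34023384, plus strand). Guide 3 matched exon 2 (chr17:34024393-34024412, minus strand) and guide 4 the intron after exon 4 (chr17:34022878-34022897, minus strand), in the RefSeq numbering of 7 exons. The span between the predicted cuts of guides 3 and 4, chr17:34022881-34024395, is 1515 bases long. It holds exons 3 and 4 and part of exon 2, 455 of 1221 coding bases (37.3%) and 39.0% of the 3889-base gene body. The start of the transcript, with exon 1, stays, and 2374 bases of the gene body stay in all. The span takes out 484 exon bases, more than its coding bases, so the start of the coding sequence lies inside it. The study names the deleted part as exons 1 to 3, which differs from the numbering used here. Normalised read counts of Ring1 were 179, 182 and 125 in PRC1CPM and 313, 204 and 166 in PRC1CKO, from 92 to 193 and 196 to 265 reads. The groups overlapped, with the highest PRC1CPM library above the lowest PRC1CKO library (log2 difference PRC1CPM minus PRC1CKO -0.46, SE 0.30, limma adjusted p = 0.561, and 0.0936 with replicate number as a block). With TMM scaling, which centres the libraries on most genes instead of on the spike-in, the difference was -0.59 and passed the test (limma, adjusted p = 0.0433). A count over the whole gene body includes the part outside the deletion, so it does not check the deletion. Rnf2, the gene of RING1B on chromosome 1, had 1850, 1660 and 1580 normalised reads in PRC1CPM and 1760, 1440 and 1390 in PRC1CKO (log2 0.16, SE 0.21, limma adjusted p = 0.907).

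Of 20633 transcripts, 16940 passed a minimum of 10 reads in at least 3 of the 12 RNA libraries and were tested with limma. Genes on chromosomes 1, 6, 11, X and Y were left out of the gene counts and names that follow, by the rule that chose what is described. Their values as whole chromosomes are given further down. That left 15926 transcripts in the table and 13129 tested, in 12237 gene symbols. Of these 13129, 209 transcripts were higher in untreated PRC1CPM (1.59%) and 45 were lower (0.343%), at an adjusted p below 0.05 and a fold change above 1.5. Counted as 1 transcript per gene, 193 of 12237 genes were higher (1.58%) and 42 lower (0.343%). The 3 PRC1CPM values all lay above the 3 PRC1CKO values for 196 of the 209 and all below for 40 of the 45; over all 13129 tested this was so for 7.0% and 1.87%. Replicate numbers were shared by the lines and pair the libraries in these data, and with the number as a block the counts were 1008 higher (7.68%) and 178 lower (1.36%), which include all 209 and all 45. The median log2 difference over the tested transcripts on the chromosomes kept was 0.09. TMM scaling moved that median to -0.04 and the counts to 383 higher (2.92%) and 208 lower (1.58%), so the higher share of calls was 82.3% with the spike-in and 64.8% with TMM (71.5% with equal library medians). The number of higher calls also rested on single libraries. It was 92 without PRC1CKO replicate 3, 118 without PRC1CPM replicate 1, 130 without PRC1CKO replicate 2, 359 without PRC1CPM replicate 2 and 818 without PRC1CKO replicate 1, the library with the highest overall level. The number of lower calls was 23 without PRC1CPM replicate 3. The quasi-likelihood test of edgeR called 189 higher (1.44%) and 42 lower (0.32%), and DESeq2 280 (2.13%) and 65 (0.495%). Over all chromosomes limma called 374 of 16940 higher (2.21%) and 81 lower (0.478%). In every one of the 6 fits that leave out a library, 59 of the higher and 14 of the lower transcripts were called.

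The higher genes were mostly of low abundance. Their median normalised read count was 101, against 489 over all tested transcripts and 704 for the lower genes, and 104 of the 209 against 9 of the 45 had a mean under 100. The median log2 difference was 1.43 in the higher and -0.99 in the lower set, values that the calling rule itself shapes. Noncoding transcripts made up 7.66% of the higher and 13.3% of the lower calls, beside 5.93% of all tested. The plot of the log2 difference against the level shows both sets among all tested transcripts.

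**Figure D1:**
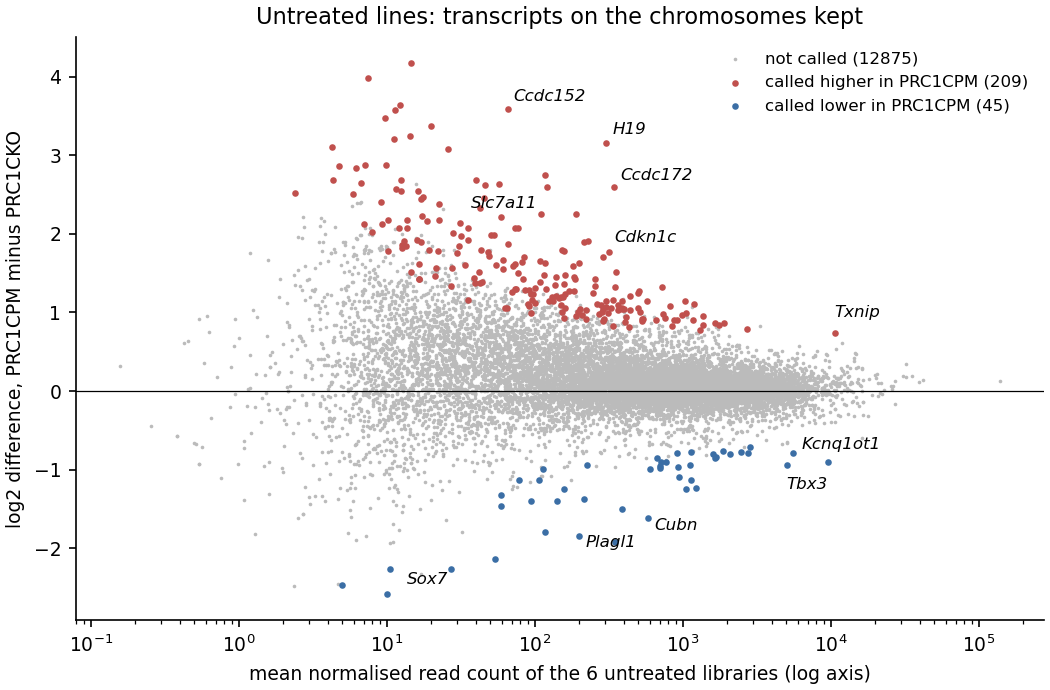
Log2 difference between untreated PRC1CPM and PRC1CKO (y) against the mean normalised read count of the 6 untreated libraries (x, log axis) for the tested transcripts on the chromosomes kept; coloured points are the 209 called higher and the 45 called lower. The higher calls lie mostly to the left, with a median level of 101, and the lower calls further to the right, with a median of 704.

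Medians of some whole chromosomes differed between the lines. Apart from Y, chromosome 11 stood highest: its 1380 tested transcripts had a median log2 difference 0.36 above that of the chromosomes kept, and 91.5% of them lay above the median of the kept chromosomes. Chromosome 6 (852 transcripts) was 0.22 above it, with 81.7% of transcripts on that side. Chromosome 1 (990 transcripts) was 0.19 below, where 37.4% lay above the kept median. In single libraries, the median of chromosome 11 relative to the kept chromosomes was 0.17, 0.15 and 0.22 in PRC1CPM and -0.18, -0.19 and -0.17 in PRC1CKO, measured from the mean of the 6 libraries. That of chromosome 6 was 0.12, 0.13 and 0.08 against -0.12, -0.10 and -0.12. The lines did not overlap on either chromosome. Chromosome 1 was -0.13, -0.06 and -0.13 in PRC1CPM and 0.02, 0.16 and 0.15 in PRC1CKO, where replicate 1 was the nearest to the other line. The treated libraries gave relative medians of 0.35, 0.23 and -0.23 for chromosomes 11, 6 and 1. Chromosome X (584 transcripts) lay 0.000955 from the kept chromosomes, and the 5 tested Y transcripts had a median 2.84 above them. The kept chromosomes lay between -0.0247 (chromosome 10) and 0.0187 (chromosome 15). These are descriptions of gene-body read counts, with no test. What sets the whole-chromosome values was not tested.

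**Figure D2:**
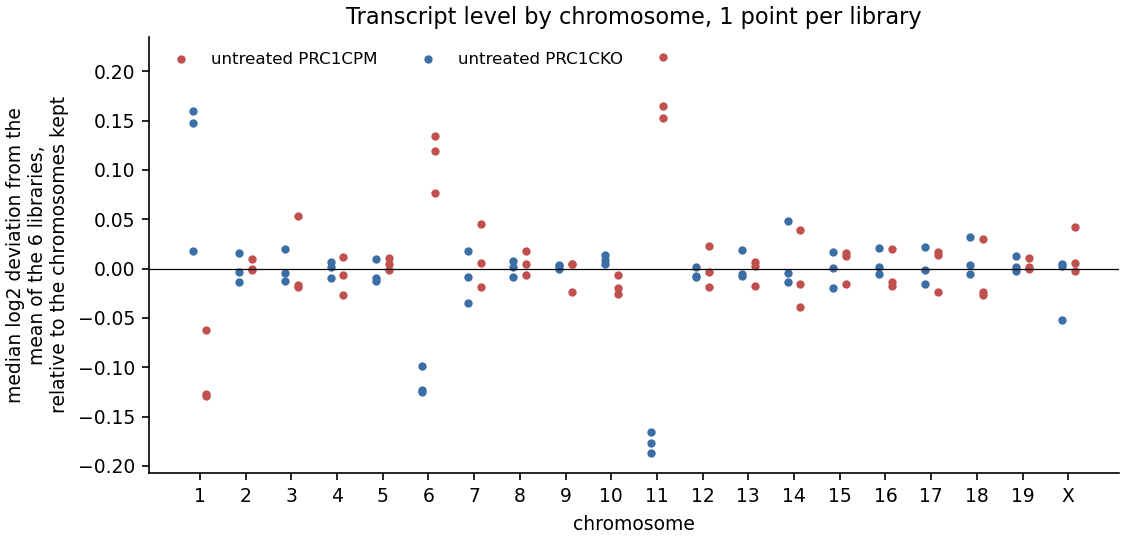
Median log2 deviation of each chromosome's tested transcripts from the mean of the 6 untreated libraries, relative to the chromosomes kept (y), by chromosome (x, Y not drawn); each point is 1 library. Chromosomes 6 and 11 separate the lines, with PRC1CPM at 0.08 to 0.13 and 0.15 to 0.22, while the kept chromosomes stay near 0. Chromosome 1 separates them the other way, with PRC1CPM at -0.13 to -0.06 and PRC1CKO at 0.02 to 0.16.

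Within the kept chromosomes, differences were mostly scattered singly. Of the 235 called genes, 25 lay in 12 runs of neighbouring tested genes called in the same direction, and 11 of the runs were pairs, among them Gbp7 and Gbp3, Fkbp6 and Trim50, and Vldlr and Kcnv2. The run of 3 was Cdkn1c, Slc22a18 and Phlda2 on distal chromosome 7. Over 11434 windows of 51 neighbouring tested transcripts, the relative median reached 0.26 at chr7:141292006-143848410 (Drd4 to Dhcr7, mm10) and -0.14 at chr10:81273188-85660292 (Tjp3 to Btbd11), and 30 windows lay beyond 0.2. The window with the highest median ends in the same cluster of imprinted genes.

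Imprinted genes, which are expressed from the copy of one parent, held some of the largest differences in both directions. Of 41 tested members of the list, 5 were higher and 3 lower in PRC1CPM (12.2% higher, background 1.58% higher and 0.343% lower), with a list median of 0.15 (-0.00901 without PRC1CPM replicate 1). H19 (NR_130973, chr7:142575530-142578146, minus strand), a long noncoding RNA made from the maternal copy, had normalised read counts of 688, 360 and 561 in PRC1CPM and 124, 23.1 and 66 in PRC1CKO. All PRC1CPM libraries lay above all PRC1CKO libraries, and the means differed 7.57-fold (log2 3.15, SE 0.36, limma adjusted p = 1.38e-08). Igf2, the growth factor gene beside it, is expressed from the paternal copy. Its values were 3990, 1280 and 1260 against 2540, 797 and 611, with replicate 1 high in each line. The difference in Igf2 did not pass without the block (log2 0.79, SE 0.35, limma adjusted p = 0.26), and passed with it (adjusted p = 9.13e-08), without PRC1CKO replicate 1 (0.0048) and without PRC1CPM replicate 2 (0.00212).

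Next to these lies the Kcnq1 cluster, in which the paternally expressed noncoding RNA Kcnq1ot1 silences its neighbours on the same copy. Kcnq1ot1 (NR_001461, chr7:143213111-143296547, minus strand) had 4030, 4370 and 3650 normalised reads in PRC1CPM and 8290, 7720 and 5200 in PRC1CKO. It was lower in PRC1CPM with no overlap (log2 -0.79, SE 0.21, limma adjusted p = 0.0212), and the call was lost without PRC1CKO replicate 2 (adjusted p = 0.107) or PRC1CPM replicate 3 (0.108), or with the 6 untreated libraries alone (0.0515). Of its neighbours 3 were called, all higher, while Tssc4 lay on the side of Kcnq1ot1 (log2 -0.29, limma adjusted p = 0.799). Cdkn1c, a cyclin-dependent kinase inhibitor, had 607, 354 and 484 against 235, 82.3 and 132 (log2 1.77, SE 0.29, limma adjusted p = 7.44e-05). Slc22a18, a transporter gene, had 409, 222 and 270 against 130, 69.3 and 89.6 (log2 1.63, SE 0.31, adjusted p = 0.00066). Phlda2, a growth-restraining gene of the placenta, had 890, 524 and 698 against 399, 205 and 291 (log2 1.25, SE 0.26, adjusted p = 0.00229). For each of these 3 genes every PRC1CPM library lay above every PRC1CKO library. Slc22a18 and Phlda2 are named after their values were seen. Kcnq1 itself had 376, 226 and 199 against 189, 103 and 123, and was not called (limma, adjusted p = 0.0695) except with the block (3.3e-06), with TMM (0.0135) or equal library medians (0.00887), and without PRC1CKO replicate 1 (0.0077) or PRC1CPM replicate 2 (0.0315). Kcnq1 overlaps Kcnq1ot1 on the other strand, and whether the counting used strand is not given in the sources used here.

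Across the stretch from H19 to Dhcr7, 22 genes were tested, of which 4 were higher and 1 lower (background 1.58% and 0.343%), or 7 and 1 with the block (7.49% and 1.32%), and the median log2 difference was 0.59. The stretch was chosen with its values known. Of the genes not called, Trpm5 (log2 1.37), Igf2os (1.07) and Tspan32 (0.97) had larger differences than Kcnq1ot1 at under 50 normalised reads, and Cd81, Nap1l4 and Osbpl5 (-0.03) were among those nearest 0. Cd81 had 9620, 6750 and 6530 in PRC1CPM and 9220, 5850 and 5730 in PRC1CKO (log2 0.15, SE 0.21, limma adjusted p = 0.91). Nap1l4 had 3820, 3190 and 3080 against 3970, 3010 and 3160 (log2 0.00, SE 0.21, adjusted p = 1.0). The map of this stretch shows each gene's difference with its error. In the OHT-treated libraries the log2 difference was 1.87 for H19, 1.24 for Slc22a18 and -1.23 for Kcnq1ot1, all called there. It was 0.66 for Cdkn1c, 0.68 for Phlda2 and -0.45 for Igf2, not called there.

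**Figure D3:**
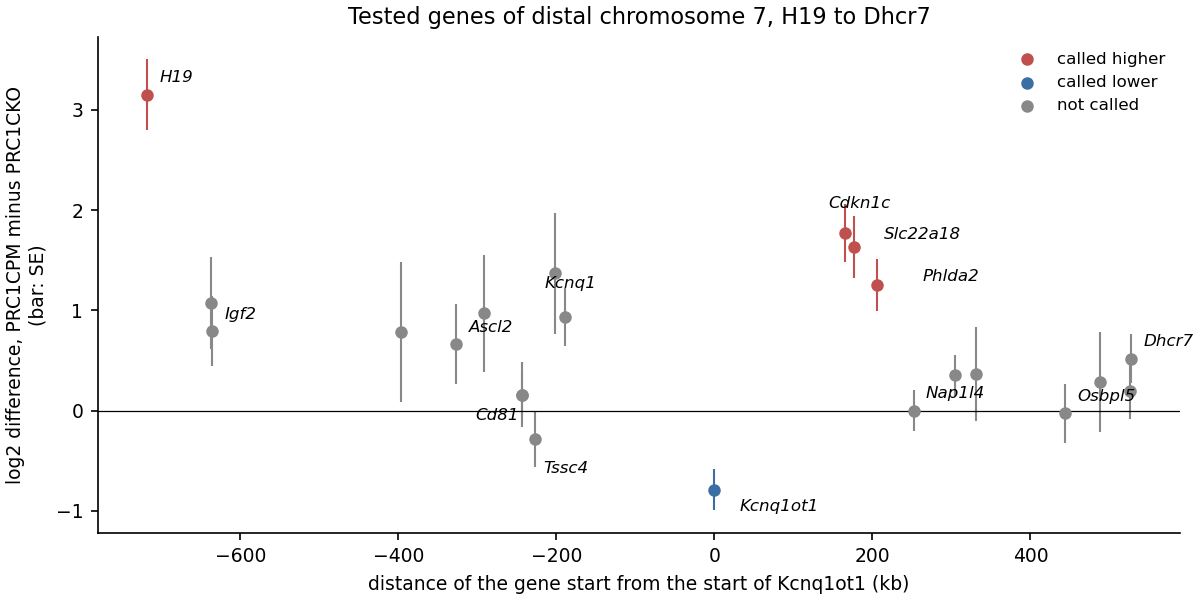
Log2 difference between untreated PRC1CPM and PRC1CKO (y, bar, SE) for the 22 tested genes from H19 to Dhcr7 on chromosome 7, by distance of the gene start from the start of Kcnq1ot1 (x, kb). H19, Cdkn1c, Slc22a18 and Phlda2 are called higher, at 3.15, 1.77, 1.63 and 1.25, and Kcnq1ot1 is called lower, at -0.79.

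Imprinted genes elsewhere also differed. Plagl1 (also known as Zac1, chr10:13090788-13131695, plus strand), which encodes a zinc finger protein that restrains growth, had 76.7, 69.7 and 111 normalised reads in PRC1CPM and 439, 282 and 226 in PRC1CKO. It was 3.68-fold lower in PRC1CPM with no overlap (log2 -1.84, SE 0.29, limma adjusted p = 4.07e-05). Nnat, a small membrane protein gene of the nervous system (chr2:157560078-157562525, plus strand), had 76.7, 66 and 65.1 against 14.9, 4.62 and 13.5 (log2 2.68, SE 0.53, adjusted p = 0.00105), although it lies inside Blcap on the other strand. The noncoding RNA Peg13 had 33.2, 30.2 and 36.6 against 104, 67.0 and 85.4 (log2 -1.32, SE 0.37, adjusted p = 0.0363). Peg13 lies inside Trappc9 on the same strand, so its gene-body count cannot be told apart from reads of Trappc9. The Peg13 call was lost without PRC1CKO replicate 3 (0.123) or any PRC1CPM replicate (0.0684 to 0.0835), while H19, Nnat, Plagl1, Cdkn1c, Slc22a18 and Phlda2 were called in every leave-one-out fit. Both Plagl1 and Nnat were called in the same direction in the treated libraries (log2 -2.27 and 3.28).

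Outside the imprinted genes, the largest higher differences fell on genes of unlike function. Ccdc152, a coiled-coil gene (chr15:3280627-3303526), had 66.5, 136 and 161 normalised reads in PRC1CPM and 2.98, 12.3 and 15.2 in PRC1CKO (11.9-fold, log2 3.59, SE 0.47, limma adjusted p = 7.97e-07). Ccdc172, another coiled-coil gene, had 501, 664 and 607 against 93.8, 100 and 96.4 (log2 2.59, SE 0.28, adjusted p = 2.76e-09). Gm10754, a noncoding transcript on chromosome 10 that overlaps 3 genes on the other strand, had 147, 222 and 248 against 28.3, 28.5 and 30.4 (log2 2.75, adjusted p = 4.76e-07). Slc5a4b, a sodium-glucose transporter family gene, had a log2 difference of 2.25, Gpx6, a glutathione peroxidase gene of the olfactory epithelium, 2.07, and the noncoding G730013B05Rik 1.91 (adjusted p at most 0.000459). All of these kept their call in every alternative tried, and none of them had overlapping groups. Txnip, the inhibitor of thioredoxin that follows glucose, was the most abundant higher gene per kb, at 15100, 9530 and 15100 against 10700, 5560 and 7850. Its log2 difference was 0.74 (SE 0.21, adjusted p = 0.0439). The Txnip groups overlapped, and the call was lost without PRC1CKO replicate 2 (0.42) or 3 (0.13) and without PRC1CPM replicate 1 (0.162) or 3 (0.2). Txnip was not called by edgeR (0.0548), DESeq2 (0.083) or limma on the 6 untreated libraries alone (0.0766).

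**Figure D4:**
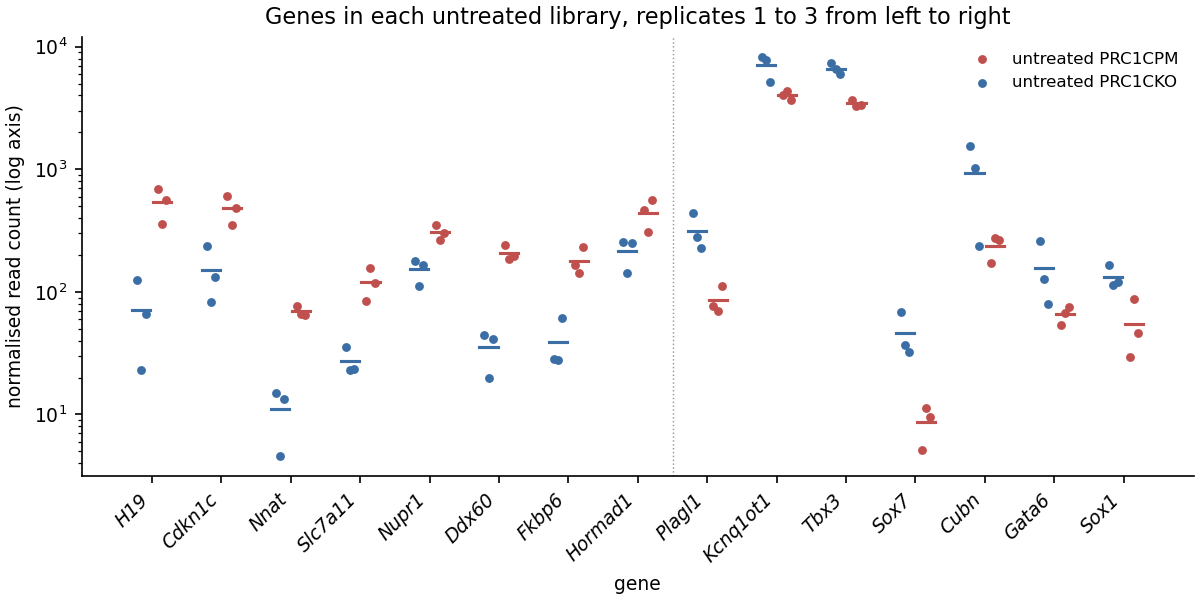
Normalised read count (y, log axis) of 15 genes (x) in each untreated library; points are replicates 1 to 3 from left to right and bars are the means of 3. To the left of the dotted line are H19, Cdkn1c, Nnat, Slc7a11, Nupr1, Ddx60, Fkbp6 and Hormad1, with higher values in PRC1CPM, and to the right Plagl1, Kcnq1ot1, Tbx3, Sox7, Cubn, Gata6 and Sox1, with lower means; Nupr1 and Gata6 pass the test only with the block or in other fits, and the groups of Cubn overlap.

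Genes of the germline were more often higher than lower. Of 27 tested members of the list 3 were higher and none lower (11.1% higher, background 1.58% higher and 0.343% lower), 21 of 27 lay above the median of all kept transcripts, and the list median was 0.33 (0.20 with TMM and 0.21 without PRC1CKO replicate 2). With the block 7 were higher (25.9%, background 7.49%): Sycp1, Tex101, Syce3, Smc1b, Dpep3, Sohlh2 and Hormad1. Tex101, a surface protein gene of male germ cells, had 240, 211 and 157 normalised reads in PRC1CPM and 95.3, 93.9 and 74.4 in PRC1CKO, with no overlap (log2 1.18, SE 0.27, limma adjusted p = 0.00537). Dpep3, a testis dipeptidase gene, had 90.8, 160 and 165 against 65.5, 55.4 and 49.9 (log2 1.23, SE 0.33, adjusted p = 0.0241). Hormad1, which encodes a protein of meiotic chromosome axes, had 463, 307 and 561 against 253, 142 and 249 (log2 1.05, SE 0.29, adjusted p = 0.0334). Tex101 was called in every leave-one-out fit, but none of the 3 was called when the 6 untreated libraries were fitted alone (limma, adjusted p = 0.0644, 0.0873 and 0.0522 for Tex101, Dpep3 and Hormad1). Dpep3 and Hormad1 each lost the call in 4 of the 6, both without PRC1CKO replicate 2 or 3 and PRC1CPM replicate 3, Dpep3 also without PRC1CPM replicate 2 and Hormad1 without PRC1CPM replicate 1 (adjusted p up to 0.145 and 0.281). Genes outside the list act in the germline too. Fkbp6, a chaperone gene of meiosis and the piRNA pathway (chr5:135337365-135349875), had 165, 142 and 233 against 28.3, 27.7 and 60.9 (log2 2.25, SE 0.37, adjusted p = 8e-05). Ctcfl, the testis paralogue of Ctcf, had 308, 328 and 408 against 147, 114 and 179 (log2 1.25, SE 0.26, adjusted p = 0.00274). Meiob, a meiotic recombination gene, had 463, 226 and 412 against 212, 75.4 and 135 (log2 1.43, adjusted p = 0.0106), and lost the call without PRC1CKO replicate 2 (0.123) or PRC1CPM replicate 3 (0.064). Ctcfl and Meiob are named after their values were seen.

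Promoters of a pair of these genes are shown because the E-box CACGTG is the sequence read by MAX. Each is the 300 bases from 250 before to 50 after the deposited gene start in GRCm38.p6, written 5′ to 3′ on the gene's strand, with matches in capitals. Fkbp6 is chr5:135349826-135350125 (minus strand) and Hormad1 is chr3:95559427-95559726 (plus strand).
Fkbp6: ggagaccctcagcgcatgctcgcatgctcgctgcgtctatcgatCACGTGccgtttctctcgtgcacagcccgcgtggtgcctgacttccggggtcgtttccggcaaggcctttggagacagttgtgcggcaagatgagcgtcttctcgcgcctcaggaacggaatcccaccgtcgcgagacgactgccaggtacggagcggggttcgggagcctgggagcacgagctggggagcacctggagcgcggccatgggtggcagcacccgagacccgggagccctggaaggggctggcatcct
Hormad1: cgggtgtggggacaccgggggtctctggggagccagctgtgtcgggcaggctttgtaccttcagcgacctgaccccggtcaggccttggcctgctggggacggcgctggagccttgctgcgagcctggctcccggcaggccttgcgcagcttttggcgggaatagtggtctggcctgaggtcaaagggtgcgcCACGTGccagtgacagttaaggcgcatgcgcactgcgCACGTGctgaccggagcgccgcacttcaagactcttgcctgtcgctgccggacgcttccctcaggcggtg
The palindrome CACGTG was found in 10 of 27 germline list promoters (37.0%), in 9.45% of the 12234 promoters of tested genes with a readable sequence, in 7.58% of the 198 higher genes and in 9.52% of the 42 lower genes (any called transcript of a symbol). Of the 3 list members that were higher, Hormad1 holds the letters, at 2 places, and Tex101 and Dpep3 do not hold them in this window. The motifs were chosen after the expression values were seen.

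Amino acid stress genes lay on one side of the rest. The list holds targets of ATF4, the transcription factor that is translated when amino acids run short or proteins misfold. Of 13 tested members, 2 were higher and none lower (15.4% higher, background 1.58% and 0.343%), all 13 lay above the median of the kept transcripts, and the 3 PRC1CPM values lay above the 3 PRC1CKO values in 9 (background 6.9%). The list median was 0.57, which is 0.48 above that of all kept transcripts. With TMM it was 0.44. Set against the PRC1CKO mean, the 3 PRC1CPM libraries had list medians of 0.66, 0.53 and 0.56. With the block 6 were higher (46.2%, background 7.49%). Slc7a11, the cystine importer (chr3:50364936-50443613), had 84.4, 158 and 119 normalised reads in PRC1CPM and 35.7, 23.1 and 23.7 in PRC1CKO (4.39-fold, log2 2.08, SE 0.50, limma adjusted p = 0.0102, and 0.0634 without PRC1CKO replicate 3). Vldlr, a lipoprotein receptor gene, had 803, 830 and 686 against 545, 261 and 302 (log2 1.14, SE 0.28, adjusted p = 0.0112), and the call was lost without PRC1CKO replicate 2 (0.0891) or 3 (0.0931). Neither gene had overlapping groups. The other 4 called with the block were Ddit3, Nupr1, Chac1 and Trib3. Nupr1 had 354, 267 and 302 against 179, 112 and 166 (log2 1.03, adjusted p = 0.0731, and 0.0125 with TMM). Chac1, which breaks down glutathione, had 900, 856 and 778 against 447, 410 and 454 (log2 0.95, adjusted p = 0.0696). Trib3, a pseudokinase gene, had 721, 883 and 755 against 429, 419 and 440 (log2 0.87, adjusted p = 0.0539). Chac1 and Trib3 did not pass with TMM (limma, adjusted p = 0.162 and 0.058) or equal library medians (0.158 and 0.0567). DESeq2 called Nupr1 (adjusted p = 0.00992) and Trib3 (0.00933) but not Chac1 (0.0607). The PRC1CPM and PRC1CKO values of Nupr1, Chac1 and Trib3 did not overlap, and each was called without PRC1CKO replicate 1 (limma, adjusted p 0.0233 to 0.0442). Atf4 itself had 3050, 2880 and 2700 against 2540, 1730 and 1940 (log2 0.49, adjusted p = 0.247, 0.0374 without PRC1CKO replicate 1).

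The promoters of the 2 called members are shown for the ATF4-type element TGATGNAA, searched on both strands. Slc7a11 is chr3:50443564-50443863 (minus strand) and Vldlr is chr19:27216770-27217069 (plus strand).
Slc7a11: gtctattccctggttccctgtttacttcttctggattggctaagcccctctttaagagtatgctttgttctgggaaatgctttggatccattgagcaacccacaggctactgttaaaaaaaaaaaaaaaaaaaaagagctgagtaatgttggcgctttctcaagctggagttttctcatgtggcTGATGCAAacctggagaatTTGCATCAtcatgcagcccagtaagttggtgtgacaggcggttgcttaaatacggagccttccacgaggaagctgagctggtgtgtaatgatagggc
Vldlr: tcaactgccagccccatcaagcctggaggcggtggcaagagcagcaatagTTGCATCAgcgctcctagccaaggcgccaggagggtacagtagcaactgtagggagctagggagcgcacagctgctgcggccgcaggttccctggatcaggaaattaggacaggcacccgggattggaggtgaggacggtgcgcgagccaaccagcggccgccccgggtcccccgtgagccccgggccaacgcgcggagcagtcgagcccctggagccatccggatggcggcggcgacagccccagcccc
The element was found in 5 of the 13 list promoters (38.5%), namely those of Chac1, Nupr1, Slc7a11, Trib3 and Vldlr, and in 2.11% of all 12234. It was found in 13 of the 198 higher genes' promoters (6.57%) and in 0 of the 42 of lower genes. Slc7a11 holds the letters at 2 places on opposite strands and Vldlr at 1. A match is a description of the sequence and not a binding site. Since the list was made of ATF4 targets, the share in its promoters is no result about the line difference.

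Interferon response genes, which cells raise on sensing viral RNA or DNA, were mostly at low counts. Of 19 on the list 9 were tested, 1 was higher and none lower (11.1% higher, background 1.58% and 0.343%), 8 lay above the median of the kept transcripts, and the list median was 0.74, and 0.40 without PRC1CKO replicate 3. With the block 4 were higher (background 7.49%): Ifitm1, Ifih1, Oasl2 and Rsad2. Ifih1, a sensor of double-stranded RNA, had 35.8, 45.2 and 19 normalised reads in PRC1CPM and 23.8, 4.62 and 5.07 in PRC1CKO, and the groups overlapped (log2 1.78, SE 0.47, limma adjusted p = 0.0228). Its call was lost without PRC1CKO replicate 2 (0.12) or 3 (0.179). Bst2, which tethers budding viruses, was the most abundant member at 1920, 1650 and 1520 against 1570, 1040 and 922, and did not pass (log2 0.56, adjusted p = 0.202, 0.0155 without PRC1CKO replicate 1). Ddx60, a helicase gene that interferon induces and that was not on the list, was among the 10 genes with the largest higher differences. It had 240, 186 and 198 against 44.7, 20 and 41.4, with no overlap (log2 2.59, SE 0.36, adjusted p = 2.78e-06). Also outside the list, and named after their values were seen, were Zbp1, a nucleic acid sensor, and the guanylate-binding protein genes Gbp3 and Gbp7. Zbp1 had 48.6, 52.8 and 69.1 against 17.9, 15.4 and 10.1 (log2 1.92, adjusted p = 0.00598). Gbp3 had 107, 117 and 78.6 against 53.6, 18.5 and 18.6 (log2 1.87, adjusted p = 0.00513). Gbp7 had 292, 254 and 138 against 149, 50.8 and 30.4, where the groups overlapped (log2 1.80, adjusted p = 0.00292). Ddx60 was called in every alternative, while Zbp1, Gbp3 and Gbp7 lost the call without PRC1CKO replicate 3 (adjusted p = 0.0553, 0.0616 and 0.0984), and Gbp7 was not called by DESeq2 (0.102).

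The promoters of Ddx60 and Ifih1 are shown for the interferon-stimulated response element, searched on both strands. Ddx60 is chr8:61927837-61928136 (plus strand) and Ifih1 is chr2:62646206-62646505 (minus strand).
Ddx60: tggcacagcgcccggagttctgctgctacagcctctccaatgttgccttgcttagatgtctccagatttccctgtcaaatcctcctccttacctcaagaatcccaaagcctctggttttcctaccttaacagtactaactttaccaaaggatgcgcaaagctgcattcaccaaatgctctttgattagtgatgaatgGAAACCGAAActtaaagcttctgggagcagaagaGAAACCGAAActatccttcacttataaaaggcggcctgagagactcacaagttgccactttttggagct
Ifih1: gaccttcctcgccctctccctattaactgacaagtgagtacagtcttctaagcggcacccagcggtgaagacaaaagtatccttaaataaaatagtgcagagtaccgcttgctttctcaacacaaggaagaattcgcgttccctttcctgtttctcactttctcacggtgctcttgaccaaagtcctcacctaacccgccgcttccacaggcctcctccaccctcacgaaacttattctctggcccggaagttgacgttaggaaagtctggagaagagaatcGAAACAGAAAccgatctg
The element was found in 5 of the 9 list promoters (55.6%), those of Bst2, Ddx58, Ifih1, Isg15 and Rsad2, and in 2.68% of all 12234. Among the higher genes 12 of 198 held it (6.06%) and among the lower 2 of 42 (4.76%). Ddx60 holds it at 2 places and Ifih1 at 1. Since the list was made of interferon response genes, the share in its promoters is no result about the line difference.

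Developmental transcription factor genes, the classic targets of Polycomb repression, were split. Of 90 tested, 7 were higher (7.78%, background 1.58%) and 2 lower (background 0.343%), the list median was 0.34, and with the block 20 were higher (22.2%, background 7.49%) and 6 lower (background 1.32%). All PRC1CPM values lay above all PRC1CKO values in 13 (background 6.9%) and below in 4 (background 1.76%). Levels were low: in single libraries the median log2 level of the list was 4.03, 3.62 and 3.57 in PRC1CPM and 3.69, 2.99 and 2.96 in PRC1CKO, so that pseudocounts of 0.1 and 10 moved the list median to 0.43 and 0.15. Ebf2, an adipocyte and neural lineage factor, had 15.3, 32.0 and 21.7 normalised reads in PRC1CPM and 5.96, 6.16 and 1.69 in PRC1CKO, with no overlap (log2 2.17, SE 0.38, limma adjusted p = 0.000273), although 2 genes overlap it on the other strand. Pax5, the B cell factor, had 53.7, 43.4 and 46.1 against 5.96, 16.9 and 18.6, again with no overlap (log2 1.85, SE 0.41, adjusted p = 0.00418). Tbx18 (log2 1.43) and Tbx1 (1.42), both named after their values were seen, were also higher. Ebf2 and Pax5 were called in every leave-one-out fit. Tbx18 lost the call without PRC1CKO replicate 2 (0.219) or 3 (0.0711) or PRC1CPM replicate 1 (0.269), and Tbx1 without PRC1CKO replicate 2 (0.126) or 3 (0.137) or PRC1CPM replicate 1 (0.155) or 3 (0.153). The lower members were Tbx3 and Cdx1. None of 18 tested Hox genes was called either way by limma with the spike-in scaling and no block (3 at an unadjusted p below 0.05), edgeR or DESeq2, with 2 higher and 1 lower by the block. The list median of -0.18 turned to 0.23 without PRC1CKO replicate 1 and to 0.27 with the filter on the 6 untreated libraries. Hoxc13 had 69.0, 47.1 and 43.4 against 122, 64.6 and 85.4 (log2 -0.74, adjusted p = 0.278, 0.0132 with the block, 0.00694 with TMM and 0.00773 with equal library medians). Hoxd13 had 12.8, 16 and 27.1 against 19.4, 9.23 and 11.

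Tbx3, a repressor of differentiation in naive ESCs (chr5:119670862-119684724), was the most abundant gene called lower per kb. It had 3680, 3300 and 3370 normalised reads in PRC1CPM and 7330, 6550 and 6030 in PRC1CKO, so that all PRC1CPM libraries lay below all PRC1CKO libraries (1.92-fold, log2 -0.94, SE 0.20, limma adjusted p = 0.00319). It was the 1 called member of 18 tested pluripotency factors, whose median was -0.18 (0.0125 without PRC1CKO replicate 1 and -0.0433 without PRC1CPM replicate 2), and 5 of the 18 lay above the kept median. Esrrb had 11500, 9480 and 8890 against 12800, 11400 and 10600 (log2 -0.22, adjusted p = 0.738). Zfp42 had 9180, 9600 and 7890 against 11800, 11400 and 9110 (log2 -0.27, adjusted p = 0.64). In both, the groups overlapped. Tdgf1, the Nodal co-receptor, was the most abundant member at 27400, 11800 and 25100 against 30700, 10900 and 19400.

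Endoderm markers included strong lower values in PRC1CPM. Of 15 tested, 2 were lower and none higher (13.3%, background 0.343% lower), and with the block 4 were lower (background 1.32%) and Hnf4a was higher (background 7.49%). Sox7, an endoderm and endothelial factor, had 5.11, 11.3 and 9.49 normalised reads in PRC1CPM and 68.5, 36.9 and 32.1 in PRC1CKO, with no overlap (5.31-fold lower, log2 -2.26, SE 0.42, limma adjusted p = 0.000513). Cubn, the endocytic receptor of visceral endoderm, had 171, 277 and 266 against 1540, 1020 and 235 (log2 -1.62, SE 0.39, adjusted p = 0.0107). PRC1CKO replicate 3 fell within the PRC1CPM range for Cubn, and the call was lost without PRC1CKO replicate 1 (0.0768). Gata6, the primitive endoderm factor, had the same order within PRC1CKO, at 53.7, 67.9 and 75.9 against 262, 128 and 79.5 (log2 -1.08, adjusted p = 0.0502). It passed with the block (4.52e-07), with TMM (0.0127) and without PRC1CKO replicate 2 (0.0385), PRC1CKO replicate 3 (0.00999) or PRC1CPM replicate 2 (0.0227). Gata6 was also called by edgeR (0.0209) and DESeq2 (0.0216), with equal library medians (0.0156) and with the filter on the 6 untreated libraries (limma, 0.048). Hnf4a, a liver and visceral endoderm factor, went the other way at 81.8, 70.7 and 73.2 against 32.8, 29.2 and 32.1 (log2 1.23, adjusted p = 0.113 without and 0.00546 with the block, and 0.0346 with TMM). The list median was -0.22, and 0.13 without PRC1CKO replicate 1, so its sign rested on that library. The median log2 level of the list was 7.43, 7.03 and 7.84 in PRC1CPM and 9.15, 8.22 and 7.76 in PRC1CKO. The part of a few differentiated cells in these values was not tested.

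Sox1, the early neural factor, which overlaps the noncoding Gm5607 on the same strand, was called lower at 29.4, 87.6 and 46.1 against 167, 113 and 120, with no overlap of the groups (log2 -1.40, SE 0.36, limma adjusted p = 0.02). It lost the call without PRC1CKO replicate 3 (0.0591) or PRC1CPM replicate 1 (0.198) or 3 (0.0695). It was the 1 called gene among 12 tested neuroectoderm markers (8.33%, background 0.343% lower), whose median of 0.61 lay on the other side (0.38 without PRC1CKO replicate 3). Nes, the neural intermediate filament gene, had 1170, 1030 and 834 against 1140, 494 and 414 (log2 0.70, adjusted p = 0.174), and passed with the block (1.39e-05) and without PRC1CKO replicate 1 (0.00224). Sox11 had 2000, 1460 and 1400 against 1810, 802 and 908 (adjusted p = 0.273). None of the tested formative and primed (14), mesoderm (8), trophoblast (6) or fibroblast (12) markers was called by limma. At an unadjusted p below 0.05 limma gave 3, 1, 2 and 3 of them, edgeR called none, DESeq2 called 1 trophoblast marker lower, and TMM called 1 trophoblast marker lower and 1 fibroblast marker higher. By the block 3, 2, 0 and 2 of them were higher and 0, 0, 2 and 1 lower. Fibroblast markers had a median of 0.44, with 11 of 12 above the kept median, but the list median was 0.0254 without PRC1CPM replicate 1 and 0.82 without PRC1CKO replicate 1. The members with the most reads over the gene body were Vim, at 4600, 1630 and 1920 against 3090, 1120 and 1410, and Col5a1, at 4930, 2470 and 2490 against 4010, 1830 and 2140. Cdx2, a trophoblast and hindgut factor, had 28.1, 11.3 and 2.71 against 95.3, 43.1 and 11.8 (log2 -1.79, adjusted p = 0.0666). It passed with the block (2.18e-05) and without PRC1CKO replicate 3 (0.00933), PRC1CPM replicate 1 (0.000211) or PRC1CPM replicate 2 (0.0099).

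Cell adhesion and matrix genes gave 2 higher and 1 lower of 38 tested collagens and laminins (5.26% higher, background 1.58% and 0.343%). Col26a1 had 366, 290 and 416 normalised reads in PRC1CPM and 182, 77.7 and 195 in PRC1CKO (log2 1.33, SE 0.31, limma adjusted p = 0.00828, 0.18 without PRC1CKO replicate 2 and 0.0624 without PRC1CPM replicate 3). Col27a1, a cartilage collagen gene, had 605, 549 and 497 against 390, 269 and 287 (log2 0.82, adjusted p = 0.0419), and lost the call in 5 of the 6 leave-one-out fits, all but the one without PRC1CKO replicate 1 (0.0629 to 0.217). Col13a1, a transmembrane collagen gene, was lower at 754, 522 and 594 against 1650, 1630 and 1170, with no overlap (log2 -1.25, SE 0.24, adjusted p = 0.00079).

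Other genes with large lower differences included noncoding transcripts and genes of neurons. The noncoding 2810429I04Rik had 187, 117 and 133 normalised reads in PRC1CPM and 721, 449 and 491 in PRC1CKO (log2 -1.92, SE 0.28, limma adjusted p = 9.65e-06). A930011O12Rik, also noncoding, had 225, 197 and 180 against 714, 629 and 403 (log2 -1.50, adjusted p = 0.000593). Ajap1, an adherens junction gene, had 71.6, 40.5 and 43.4 against 244, 182 and 122 (log2 -1.79, adjusted p = 0.000359). Grin2a, an NMDA receptor subunit gene, had 79.3, 155 and 111 against 334, 463 and 157 (log2 -1.38, adjusted p = 0.00209), and Gprc5b, an orphan receptor gene, had means of 743 and 1710 (log2 -1.23, adjusted p = 0.0007). None of these 5 had overlapping groups or lost the call when a library was left out. Lrfn2, a synaptic adhesion gene, was lower by 1.25 on the log2 scale (adjusted p = 0.00953, and 0.0595 without PRC1CKO replicate 3). The homeobox gene Meis2 had 58.8, 61.3 and 67.8 against 235, 140 and 79.5 (log2 -1.13, adjusted p = 0.0309). Meis2 lost the call without PRC1CKO replicate 1 (0.103) or 2 (0.061) or PRC1CPM replicate 1 (0.0538) or 3 (0.0612).

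None of 18 tested subunit genes of PRC1 itself was called by limma with the spike-in scaling (0 at an unadjusted p below 0.05), with the block, or by edgeR or DESeq2, whereas Ring1 was called lower with TMM (0.0433) and with the block and TMM (0.0127), and the list median was 0.01 (-0.10 to 0.20 without 1 library). Mga, of the PCGF6 complex, had 10500, 7460 and 9130 normalised reads in PRC1CPM and 9690, 7070 and 7600 in PRC1CKO (log2 0.16, limma adjusted p = 0.899). Of 6 tested PRC2 subunit genes none was called by limma with the spike-in scaling and no block (1 at an unadjusted p below 0.05), edgeR or DESeq2, and Phf19 was higher and Jarid2 lower with the block. Jarid2, a PRC2 cofactor, had 12400, 14900 and 10800 against 22800, 23500 and 13200 (log2 -0.60, SE 0.20, adjusted p = 0.0994, and 0.000472 with the block), and passed with TMM (0.0289) or equal library medians (0.0452) and without PRC1CKO replicate 3 (0.015) or PRC1CPM replicate 2 (0.0431). Mtf2 had 13400, 10600 and 10700 against 15100, 11800 and 12000 (log2 -0.16, adjusted p = 0.883).

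Signalling and housekeeping lists held few calls, beside the background of 1.58% higher and 0.343% lower. Of 20 tested p53 targets the apoptosis gene Pmaip1 was lower, at 479, 362 and 347 normalised reads against 1030, 807 and 570 (log2 -0.99, limma adjusted p = 0.0138, 0.0862 without PRC1CPM replicate 3). Of 8 Wnt response genes Cdx1 was lower, at 130, 49 and 48.8 against 375, 109 and 143 (log2 -1.40, adjusted p = 0.0148), with the call lost without PRC1CKO replicate 1 (0.0909) or PRC1CPM replicate 3 (0.0956) and by DESeq2 (0.167). Of 21 cholesterol synthesis genes 1 was higher and none lower. No member was called among 10 genes of DNA methylation, 14 of the FGF-ERK response, 10 of the Nodal and BMP response, 17 of glycolysis, 27 clustered protocadherins, 8 histone genes, 55 ribosomal protein genes, 246 Zfp genes or the 1 two-cell-like gene tested (limma, by the block 1, 1, 1, 1, 1, 1, 0, 1 and 0 were higher and 0, 2, 1, 0, 0, 0, 0, 1 and 0 lower). At an unadjusted p below 0.05 limma gave 1, 3, 2, 2, 3, 1, 0, 4 and 0 of these lists, edgeR called none of their members, and DESeq2 called 1 Zfp gene higher and 1 lower. With TMM 3 FGF-ERK genes, 1 Nodal and BMP gene and 2 Zfp genes were lower and 1 Zfp gene was higher. Medians of the ribosomal protein and Zfp lists were 0.10 and 0.02, and turned to -0.03 and -0.12 with TMM. Smad7, the feedback inhibitor of BMP signalling, had 4310, 3420 and 3040 against 7140, 5550 and 4600 (log2 -0.68, adjusted p = 0.0658), and passed with the block (8.53e-06), with TMM (0.000361) or equal library medians (0.000607) and without PRC1CPM replicate 1 (0.0315).

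Promoters of the higher genes held fewer CpGs than the average promoter. The median number of CpGs in the 300-base window was 12 (quartiles 5 and 24) for the 198 higher genes, 19 for the 42 lower genes and 20 for all 12234. The ratio of observed to expected CpGs was below 0.4 in 74 of the 198 (37.4%), in 8 of the 42 (19%) and in 20.4% of all. Level moves with this: among the 3186 genes with a mean normalised read count under 100, the median was 9 CpGs and 45.5% lay below 0.4. The part of low expression in this difference was not tested.

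The treated libraries gave a second reading of the line difference. The untreated means do not use these samples, but both contrasts share the filter, the estimate of the spread and the replicate numbers. After OHT the lines differ in RING1B as well as in RING1A. Of the 209 higher transcripts, 181 (86.6%) kept the sign after OHT, beside 62.6% of all kept transcripts with that sign. Of the 45 lower ones 42 (93.3%) did, beside 37.4%. Called in the same direction were 37 and 9, against a background of 0.861% higher and 0.183% lower after OHT. The medians were 0.73 and -0.65. Genes named above that were called in both states include H19, Nnat, Ccdc152, Ccdc172, Gm10754, Ddx60, Fkbp6, Slc7a11, Gpx6, Txnip, Plagl1, Kcnq1ot1, Peg13, Meis2 and Grin2a. Meis2 had 183, 139 and 137 normalised reads in treated PRC1CPM and 1270, 920 and 1120 in treated PRC1CKO (log2 -2.84, SE 0.31, limma adjusted p = 6.66e-09). Those called in the untreated lines with a difference within 0.2 of 0 after OHT include Pax5 (0.07), Tex101 (-0.14), Cubn (0.16) and Cdx1 (-0.13), but their interaction did not pass in the fit without the block (limma, adjusted p 0.512 to 1.0). With the block it passed for each of the 4 (adjusted p = 0.00488 for Pax5, 2.64e-05 for Tex101, 9.47e-08 for Cubn and 0.000203 for Cdx1). The interaction of line and treatment was called for 2 kept transcripts without the block (0.0152%), Ebf2 and Mecom, for 12 with DESeq2 and for 247 with the block (1.88%). Ebf2 and Mecom both belong to the study's set of partially derepressed genes, which is described next and was drawn with the help of these libraries.

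**Figure D5:**
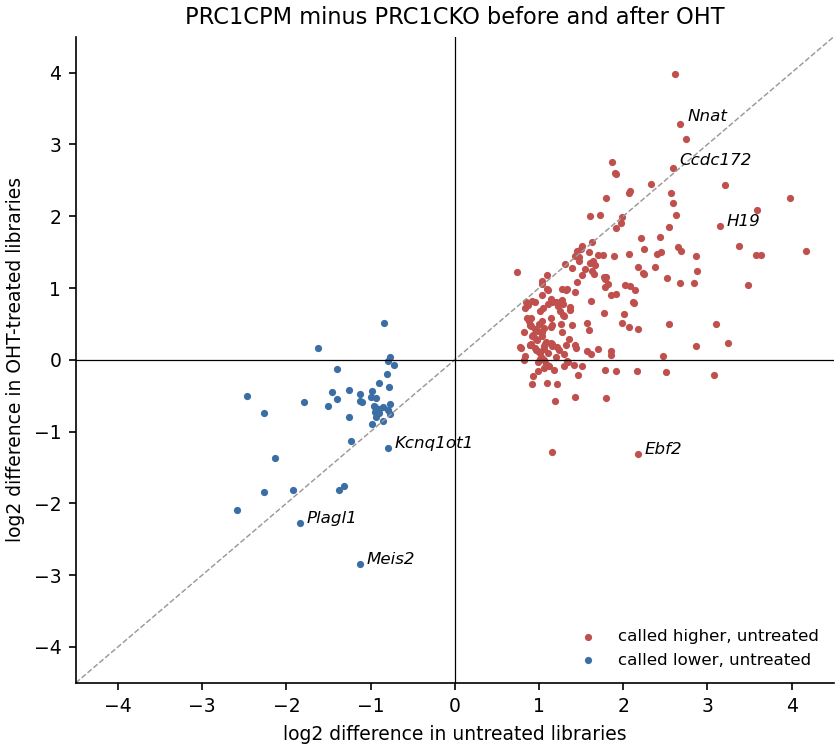
Log2 difference PRC1CPM minus PRC1CKO in the OHT-treated libraries (y) against the untreated libraries (x) for the 209 transcripts called higher and the 45 called lower without treatment; the dashed line marks equal values. Of the points, 181 and 42 keep their sign, and Ebf2 lies at 2.17 and -1.31.

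The study defined a set of genes that are derepressed less in treated PRC1CPM than in treated PRC1CKO. It was drawn with the help of these same libraries, so its values here are no independent evidence. The deposited set holds 241 transcript entries in 217 gene symbols. Of the 217 symbols 166 were tested on the kept chromosomes, and 39 were higher (23.5%, background 1.58%) and 5 lower (background 0.343%) in untreated PRC1CPM; with the block 83 and 13 were called (background 7.49% and 1.32%). The median log2 difference was 0.64 without treatment, and 0.72, 0.59 and 0.59 in the 3 PRC1CPM libraries, each set against the PRC1CKO mean. After OHT it was -0.68. Of the 209 higher transcripts in all, 42 belong to this set. Mecom, a haematopoietic zinc finger gene in it, had 61.4, 59.4 and 29.8 normalised reads in untreated PRC1CPM and 17.9, 20 and 25.4 in untreated PRC1CKO (log2 1.16, SE 0.33, limma adjusted p = 0.0437). After OHT it had 406, 270 and 211 against 879, 590 and 646, so the line with the higher value changed (log2 -1.28, adjusted p = 0.0294). The untreated call was lost without PRC1CKO replicate 2 (0.0909) or 3 (0.0638) or PRC1CPM replicate 1 (0.189) or 2 (0.102). Mecom is named after its values were seen.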

How the data were processed

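RNA was measured by calibrated RNA-seq in 12 libraries, of which the 6 untreated ones are described. Per the labels and methods, the authors removed ribosomal RNA, made directional libraries, and aligned reads to mm10 and dm6 with STAR and Bowtie2. They removed duplicates and counted reads over the bodies of 20633 non-redundant mm10 genes. The deposited signal is this count divided by a DESeq2 size factor from the Drosophila reads, corrected by genomic DNA libraries. Dividing each column by the value of 1 read gave whole reads for 100% of values (tolerance 0.02). The deposited columns of the authors' own fold changes and p-values were not used. Members and gene lists were chosen with earlier results of these data known.

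Tests used limma 3.58.1 (R 4.3.3, trend) on log2(normalised read count + 1) of all 12 libraries with 1 mean for each condition, keeping transcripts that reached 10 reads in 3 or more libraries. Fold changes on this scale understate the change of low genes. P-values were adjusted by Benjamini-Hochberg over all 16940 transcripts, the 3811 on chromosomes left out included. A call needed a fold change over 1.5 with its adjusted p below 0.05. On the recovered reads, the quasi-likelihood test of edgeR 4.0.16 called 340 transcripts higher and 75 lower over all chromosomes, and DESeq2 1.42.0 called 493 and 110. Over same-numbered libraries of the lines the deviations from the line means correlated at 0.22, 0.377 and 0.186 (different numbers, -0.254 to 0.0275), so the replicate number was taken to pair the libraries. The pairing comes from the data, since the labels give a shared number and no shared day or batch, and the fit without the block stays the first one given.

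Named were the engineered genes, called members of each of 28 lists (up to 6, otherwise the 3 largest each way), the 2 members with the most reads where fewer than 2 were called, the 10 largest differences each way with no overlap and a mean of at least 100, the most abundant called gene each way, and transcripts near 0 in one line (at most 3 reads, against at least 50), of which there were 0. Genes added later were named after their values were seen, and only some are marked so where they are described. Those without the mark are Igf2, Kcnq1, Nupr1, Chac1, Trib3, Atf4, Hnf4a, Gata6, Cdx2, Rsad2, Isg15 and Rasgrf1. Some called genes are not reported here by name. Promoter and guide positions were read from the GRCm38.p6 genome with its RefSeq annotation.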

Additional observations from a re-analysis of the deposited data

Results flagged for a closer look

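In 5 genes and 1 gene set the line difference had the opposite sign before and after OHT. Ebf2 had 15.3, 32.0 and 21.7 normalised reads in untreated PRC1CPM against 5.96, 6.16 and 1.69 in PRC1CKO, and 397, 319 and 226 against 934, 680 and 692 after OHT. The log2 difference was 2.17 before and -1.31 after, and the interaction was -3.48 (limma, adjusted p = 0.000732). Mecom had log2 differences of 1.16 and -1.28, with an interaction of -2.44 (limma, adjusted p = 0.0274). Ebf2, Mecom and Tbx18 (below) belong to the study's set of partially derepressed genes. The study drew that set partly by the interaction of line and treatment in these same libraries. The change of sign in these genes is therefore no independent evidence.

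For the other genes the difference between the states passed by limma with the block and not without it, and that of Tbx18 also passed by DESeq2 (adjusted p = 0.0432). Tfap2c, a trophoblast and germ cell factor, had 882, 1020 and 922 against 1410, 1620 and 1270 without treatment (log2 -0.60) and 1400, 1030 and 1200 against 948, 930 and 842 after OHT (log2 0.41), and the lines did not overlap in either state (limma, interaction adjusted p = 0.653, and 7.99e-05 with the block). The untreated Tfap2c difference did not pass with the spike-in scaling and no block (limma, adjusted p = 0.142), and passed with the block (0.000253), TMM (0.013), equal library medians (0.0221) and DESeq2 (0.039). Rasgrf1, an imprinted exchange factor gene, had 14.1, 5.65 and 8.13 against 0.0, 4.62 and 3.38 before (log2 1.74) and a log2 difference of -0.59 after OHT (limma, interaction adjusted p = 0.749, and 0.0177 with the block). The untreated Rasgrf1 difference did not pass by limma (adjusted p = 0.0632), edgeR (0.262), DESeq2 (0.21) or the block with TMM (0.0513), and passed with the block (0.00139) and without PRC1CKO replicate 2 (0.0128) or PRC1CPM replicate 2 (0.0173). Tbx18 was at 1.43 before and -0.51 after (limma, interaction adjusted p = 0.512, and 0.000612 with the block). The study's set of partially derepressed genes had a median of 0.64 before and -0.68 after OHT, which was not tested as a set and follows in part from how the set was chosen.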

How the results depend on the processing

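No result changed its called direction in the 22 settings. Of the repeats for single genes 1397 kept the direction and the side of the threshold, 194 lost the call and 78 gained it. Depth limits genes under about 10 reads, and single clones limit what the line difference stands for.

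Higher calls over all chromosomes (374) became 228 with the 6 untreated libraries alone, 673 with TMM, 773 with equal library medians, 51 with limma treat, 243 with no filter on low counts, 1631 with the replicate block, 997 with the block and TMM, and 154 at an adjusted p under 0.01. The range without 1 library was 170 to 1492. On the kept chromosomes (209) the same settings gave 127, 383, 442 and 26, then 1008 with the block, 614 with the block and TMM, 85 at 0.01, and 92 to 818 without 1 library. Lower calls over all chromosomes (81) became 47, 330, 274 and 5, then 253 with the block, 427 with the block and TMM, 43 above a fold change of 2, 32 at 0.01, and 46 to 94 without 1 library. On the kept chromosomes (45) they became 25, 208, 176 and 4, 29 with no mean-variance trend, 178 with the block, 278 with the block and TMM, 22 above a fold change of 2, 16 at 0.01, and 23 to 61 without 1 library.

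Calls shared with the treated libraries (46) became 73 with DESeq2, 91 with TMM, 94 with equal medians, 15 with treat, 116 with the block, 108 with the block and TMM, 29 at 0.01, and 47 to 72 without 1 library. Interaction calls (2) became 12, 6 and 8 with DESeq2, TMM and equal medians, 0 with no filter and with no trend, 1 with a pseudocount of 0.1, 247 with the block, 186 with the block and TMM, and 3 to 24 without 1 library.

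List medians moved too. Amino acid stress genes (0.57) were 0.64 with DESeq2 and with edgeR, 0.44 with TMM with or without the block, 0.47 with equal medians, and 0.38 to 0.74 without 1 library. The partially derepressed set (0.64) was 0.51, 0.53 and 0.49 with TMM (with or without the block), equal medians and a pseudocount of 10, and 0.47 to 0.82 without 1 library. Developmental transcription factors (0.34) were 0.24 with TMM, with or without the block, 0.23 with equal medians, 0.43 and 0.15 with pseudocounts of 0.1 and 10, and 0.28 to 0.50 without 1 library. Formative and primed markers (0.13) were -0.00454 with TMM, with or without the block. Without 1 library the medians ran from -0.56 to 0.13 for endoderm markers, -0.0165 to 0.35 for p53 targets, -0.24 to 0.0932 for FGF-ERK genes, -0.13 to 0.34 for Nodal and BMP genes, -0.24 to 0.45 for Wnt genes, 0.40 to 0.96 for interferon genes, -0.12 to 0.40 for histone genes and -0.0106 to 0.30 for ribosomal protein genes, and the relative medians from -0.25 to -0.17 for chromosome 1 and -0.0126 to 0.0381 for chromosome X. Of 29 list medians, 21 turned their sign when 1 library was left out. The cause of these shifts was not tested. The two-cell-like list gave no value with the filter on the untreated libraries alone. With the 6 untreated libraries alone the calls of Ifih1, Tbx18, Tbx1, Mecom, Col27a1, Meis2 and Peg13 were also lost (limma, adjusted p 0.0778 to 0.291). Of 76 named genes, 19 lost the call with no mean-variance trend, 18 with no filter on low counts and 38 with limma treat. Slc7a11 (limma, adjusted p = 0.0993 with no trend and 0.0575 with no filter), Cubn (0.202 and 0.0826), Meiob (0.0899 and 0.056) and Kcnq1ot1 (0.112 and 0.0517) were among them. Vldlr (0.0887) and Grin2a (0.0699) lost the call with no trend. Apart from the calls given with it, the block changed no other call of a named gene from called to not called.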
